A study of Arabidopsis thaliana with 12 samples.

Results

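The endoplasmic reticulum (ER) genes described here are 10 loci of the unfolded protein response, taken as a fixed list of locus identifiers from a table of 33557 loci. They are the luminal HSP70 genes BIP1 (AT5G28540), BIP2 (AT5G42020) and BIP3 (AT1G09080), the transcription factor genes BZIP17 (AT2G40950), BZIP28 (AT3G10800) and BZIP60 (AT1G42990), the J-protein genes ERDJ3A (AT3G08970) and ERDJ3B (AT3G62600), SDF2 (AT2G25110) and the calnexin gene CNX1 (AT5G61790). All 10 were in the table, and all 10 passed the filter of a mean of at least 1 FPKM that left 17720 loci for testing. The rule names loci and holds no measured value, but the list was drawn up with earlier results of these data known.

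The RNA-seq series held 4 groups of Arabidopsis thaliana Columbia 0 plants aged 5 weeks, with 3 libraries each. 35S:HSFA1b HS and WT HS plants were exposed to 37 °C for 30 min, and 35S:HSFA1b NS and WT NS plants stayed at 23 °C. NS stands for non-stress and HS for heat stress. The 35S:HSFA1b plants express a fusion of the heat shock factor HSFA1b to a red fluorescent protein from the 35S promoter, which is active in most tissues, and the line was a single overexpressor in the Columbia 0 background. WT plants carry no transgene. Each value is a normalized FPKM, which is a count of sequenced fragments scaled by transcript length and library size, so levels can be set side by side between genes of different length.

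When proteins fail to fold in the ER, BiP proteins and their partners are drawn to them, and plants raise the supply of ER chaperones through 2 signalling arms. In one, the membrane-bound factors bZIP17 and bZIP28 move to the Golgi, where proteases release their DNA-binding part. In the other, the ER kinase and nuclease IRE1 splices the mRNA of bZIP60 so that an active factor is made. These factors are known to bind ER stress elements (ERSE) and related sites, and heat is a known trigger of both arms in Arabidopsis.

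Promoter sequence was read from the RefSeq genome (TAIR10.1) in the 250 bases before the annotated start of each gene. The search covered both strands and is shown because the members differ in what it finds. A plant form of ERSE, written here as CCAATNNNNNNNNNNCACG, was present in 0.689% of 27443 promoters and in 1 member, BIP3, which held it 2 times. The G-box CACGTG was present in 6.49% of promoters and in the members BIP3, BZIP60 and SDF2, and in BIP3 it overlapped the first of the ERSE matches. A pair of heat shock element (HSE) units, GAANNTTC or TTCNNGAA, was present in 16.1% of promoters and in the members ERDJ3A and BZIP17. In the next 3 lines the sequences run 5′ to 3′ on the strand of the gene, and capitals mark the ERSE matches in BIP3 (read from the opposite strand), the HSE pair in ERDJ3A and the G-box in BZIP60.
BIP3, chr1:2931883-2932069, minus strand: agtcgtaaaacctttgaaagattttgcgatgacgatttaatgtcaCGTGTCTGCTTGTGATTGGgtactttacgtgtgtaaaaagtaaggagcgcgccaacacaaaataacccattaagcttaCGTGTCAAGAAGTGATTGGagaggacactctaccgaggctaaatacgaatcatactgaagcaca
ERDJ3A, chr3:2737224-2737296, plus strand: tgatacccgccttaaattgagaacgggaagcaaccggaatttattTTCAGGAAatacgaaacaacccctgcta
BZIP60, chr1:16137566-16137661, minus strand: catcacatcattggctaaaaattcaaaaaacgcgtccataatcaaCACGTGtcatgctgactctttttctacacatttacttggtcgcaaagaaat

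No member held 3 HSE units in a row (GAANNTTCNNGAA or TTCNNGAANNTTC), which 0.386% of promoters did. The other ER stress motifs searched were ERSE (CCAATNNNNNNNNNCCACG, 0.306% of promoters), ERSE-II (ATTGGNCCACG, 0.0619%) and the UPR element TGACGTGG or TGACGTGA (1.82%), and no member held any of them in this window. A further UPR element, P-UPRE, was searched only as a long fixed sequence with no variable base, and 0 of the 27443 promoters held it. Such a sequence is rare in any short window, so this count does not show that related forms are absent. These matches describe letters in a short window and not binding. The window also depends on the annotated start. The last bases of the BIP1 window recur in BIP2 well before its start, so these windows do not cover matching stretches.

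Some properties of the samples bear on every comparison. The deposited columns carry the group and a digit from 0 to 2, while the libraries are numbered 1 to 3, so a column could not be tied to a library. The library descriptions open with 1 of 2 numbers, read here as submission numbers. All 3 35S:HSFA1b HS and 2 of the 35S:HSFA1b NS libraries carry one of them, and 1 35S:HSFA1b NS and all WT libraries carry the other. Genotype and submission therefore cannot be told apart at HS, and within-submission values could not be computed at NS because the columns are not tied to libraries. HSFA1b itself was at 330 to 364 FPKM in 35S:HSFA1b HS and 6.17 to 7.31 FPKM in WT HS, and at 430 to 624 FPKM in 35S:HSFA1b NS and 3.10 to 4.79 FPKM in WT NS, which follows the group names. The summed FPKM of a column was 758630 to 796860 in 35S:HSFA1b HS and 1222030 to 1280258 in WT HS. At NS it was 632840 to 833273 in 35S:HSFA1b and 873541 to 956978 in WT. The 5 leaf markers (RBCS1A, RCA, CA1, LHCB2.1 and LHCB1.1) made up 1.65 to 1.80% of the summed FPKM in 35S:HSFA1b HS columns and 2.90 to 3.92% in WT HS columns. In 35S:HSFA1b NS they made up 1.81, 1.80 and 4.49% in columns 0, 1 and 2, against 4.54 to 5.26% in WT NS columns. Only column 2 lay near the WT NS values, and 1 35S:HSFA1b NS library carries the number of the WT libraries. Whether column 2 is that library is not known, and the part of submission in the marker values was not tested. The flower and seed markers stayed below 1 FPKM in every column, while the root genes PYK10 and DR4 differed between the genotypes. PYK10 was at 18.5 to 31.6 FPKM in 35S:HSFA1b HS and 8.80 to 15.8 FPKM in WT HS, and at 39.6 to 41.6 FPKM in 35S:HSFA1b NS and 13.7 to 15.7 FPKM in WT NS. DR4 was at 20.3 to 52.1 FPKM in 35S:HSFA1b HS and 7.61 to 13.4 FPKM in WT HS, and its columns overlapped at NS, with 15.6 to 38.6 FPKM in 35S:HSFA1b NS and 12.5 to 24.8 FPKM in WT NS. Both genes thus lay higher in 35S:HSFA1b with no overlap at HS, and PYK10 also at NS. In whole tissue, fewer cells of a type and less RNA per cell cannot be told apart. The part of these differences in the results for the ER genes was not tested. Since nothing ties the libraries of a group to separate plants beyond the replicate numbers and the methods' mention of biological replicates, which leaves out 35S:HSFA1b HS, each p measures the spread between these columns.

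Heat raised the transcripts of all 10 ER genes in WT plants. The increases ran from 2.80-fold for BZIP17 to 250-fold for ERDJ3A, and BIP1, BIP2 and CNX1 became highly abundant transcripts. The background share of tested genes called up in WT HS against WT NS at an adjusted p of at most 0.05 was 23.7%. The median log2 fold change of the members was 2.75, beside 0.02 over all 17710 genes of this test.

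Among the chaperones, BIP1 stood at 1040, 1603 and 2191 FPKM in columns 0, 1 and 2 of WT HS, against 206, 109 and 117 FPKM in WT NS. The groups were far apart, with a log2 fold change of 3.48 (SE, the standard error, 0.31, limma adjusted p = 6.51e-05). BIP2 followed the same pattern at 664, 1085 and 1761 FPKM in WT HS, against 145, 73.4 and 74.3 FPKM in WT NS, a log2 fold change of 3.55 (SE 0.37, limma adjusted p = 0.000153). These proteins bind exposed hydrophobic stretches of unfolded chains in the ER lumen. BIP1 and BIP2 share 97.2% identity over 2122 aligned bases, so their split depends on how shared reads were assigned. Of the 50-base words of BIP1, 22.9% also occur in BIP2 without a mismatch. The authors' mapping allowed mismatches, so further reads may align to both genes. Summed, BIP1 and BIP2 rose by 3.51 on the log2 scale (limma adjusted p = 9.69e-05).

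BIP3, the BiP gene that is nearly silent without ER stress, stood at 9.92, 46.6 and 90.9 FPKM in WT HS, against 11.3, 0.768 and 0.736 FPKM in WT NS. Its groups overlapped, because column 0 of WT NS lay above column 0 of WT HS. The log2 fold change was 4.22 (SE 1.09, limma adjusted p = 0.0138), and without WT NS column 1 or 2 it was 3.58 and 3.55 (limma adjusted p = 0.0524 and 0.0538). It was 3.52 without WT HS column 2, 5.12 without WT HS column 0, 5.51 without WT NS column 0, and 3.44 with a pseudocount of 1, and it was called in each of these. BIP3 has no 50-base word in common with BIP1 or BIP2, and the promoter with the ERSE matches printed above belongs to it.

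The largest increase among the members was that of ERDJ3A, which encodes a J-protein of the ER lumen. It stood at 419, 431 and 623 FPKM in WT HS, against 4.71, 0.916 and 1.65 FPKM in WT NS. No other member came near the resulting log2 fold change of 7.96 (SE 0.49, limma adjusted p = 5.78e-06). Without WT NS column 0 it was 8.61, and with a pseudocount of 1 it was 7.30. An HSE pair, printed above, lies 28 bases before its start. BZIP17, the other member with such a pair (9 bases before its start), had the smallest change of the 10. A role of the pair was not tested. The gene overlaps AT3G08960 on the opposite strand by 60 bases, and reads in that overlap could not be told apart without strand.

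ERDJ3B, SDF2 and BiP are known to form a complex in the ER of Arabidopsis. ERDJ3B stood at 142, 263 and 394 FPKM in WT HS, against 59.3, 30.5 and 32.7 FPKM in WT NS (log2 fold change 2.65, SE 0.37, limma adjusted p = 0.000694). SDF2 stood at 147, 230 and 313 FPKM in WT HS, against 56.0, 35.5 and 39.0 FPKM in WT NS (log2 fold change 2.37, SE 0.26, limma adjusted p = 0.000222). Both genes were separated between the groups in every column, and the 2 partners had similar levels in each. CNX1, a membrane lectin that holds newly made glycoproteins, stood at 578, 922 and 1247 FPKM in WT HS, against 170, 102 and 104 FPKM in WT NS. Its log2 fold change was 2.84 (SE 0.29, limma adjusted p = 0.000143). After quantile normalization between columns, the log2 fold change was 2.11 for CNX1, 2.66 for BIP1 and 2.78 for BIP2, and all 3 were still called.

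The 3 transcription factor genes also rose, with smaller log2 fold changes than 6 of the 7 other members. BZIP17 stood at 34.9, 34.9 and 47.0 FPKM in WT HS, against 19.0, 10.9 and 12.6 FPKM in WT NS, a log2 fold change of 1.49 (SE 0.20, limma adjusted p = 0.00062). BZIP28 stood at 52.7, 60.4 and 81.9 FPKM in WT HS, against 13.6, 11.1 and 11.0 FPKM in WT NS, a log2 fold change of 2.43 (SE 0.16, limma adjusted p = 1.04e-05). Neither pair of groups overlapped, and BZIP28 had the narrowest standard error of the members. BZIP60 stood at 84.6, 161 and 376 FPKM in WT HS, against 41.4, 25.5 and 26.2 FPKM in WT NS, a log2 fold change of 2.51 (SE 0.46, limma adjusted p = 0.0027). FPKM per locus does not separate its spliced from its unspliced mRNA, nor does it measure cleavage of the bZIP17 and bZIP28 proteins. Of the 10 members, 9 had no overlap between the columns of WT HS and WT NS, and 28.3% of the tested genes were higher in that way.

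**Figure D1:**
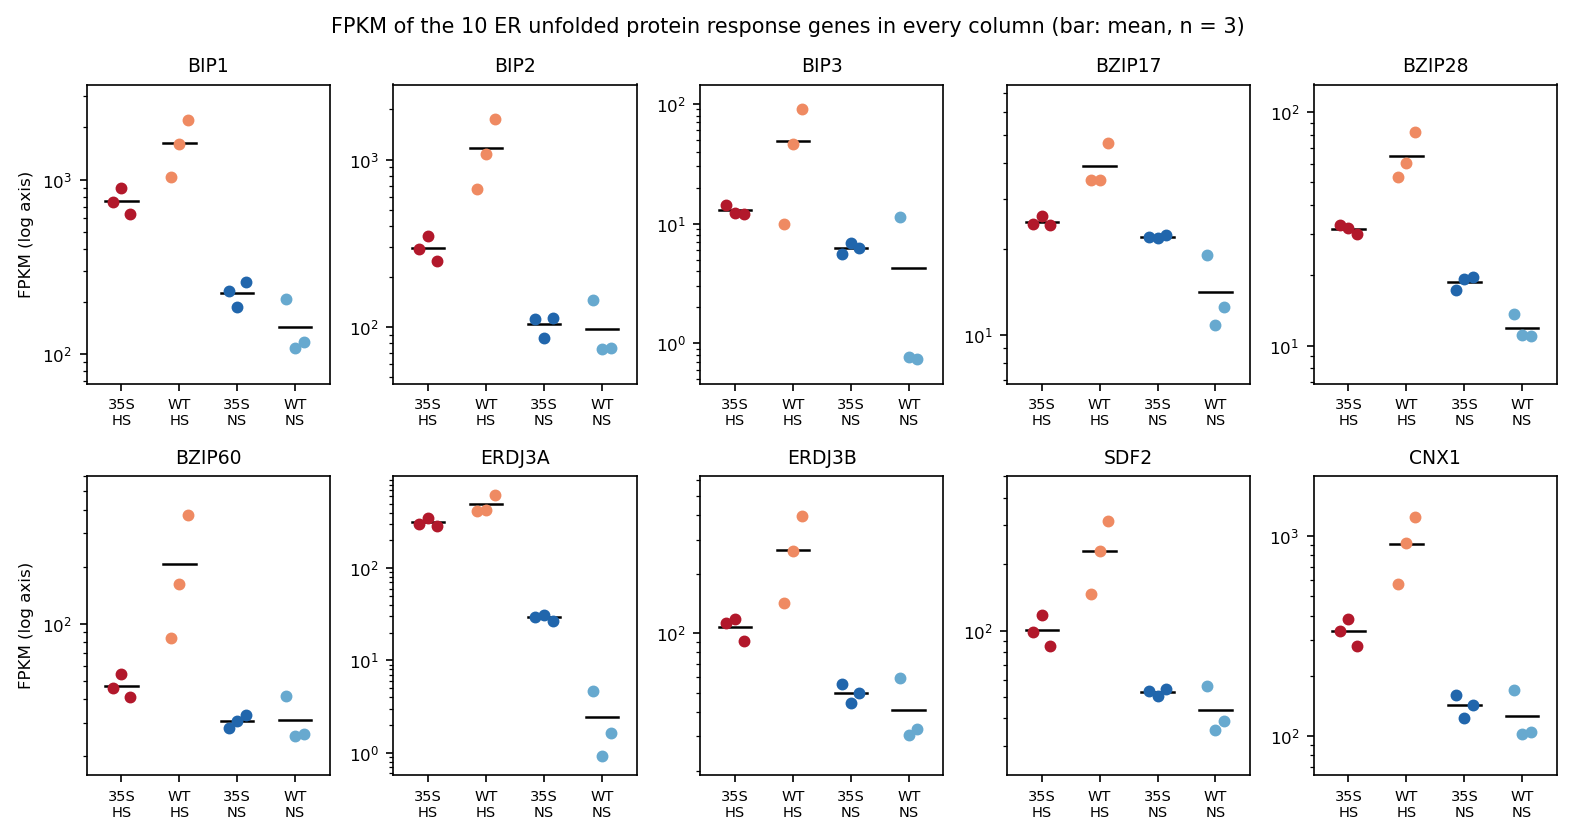
FPKM of the 10 genes in every column, on log axes, with 35S:HSFA1b HS, WT HS, 35S:HSFA1b NS and WT NS from left to right and columns 0, 1 and 2 from left to right within a group; bars are means of 3 columns. WT HS is the highest group for every gene by its mean, and ERDJ3A in 35S:HSFA1b NS (26.9 to 31.0 FPKM) lies clear of WT NS (0.916 to 4.71 FPKM).

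The WT columns did not vary independently from gene to gene. Column 0 of WT NS was the highest of its group for all 10 members, while it was the highest for 37.4% of the 17720 tested genes. Its value was 1.23 times (BZIP28) to 15 times (BIP3) the mean of columns 1 and 2, and the median of this ratio over all genes was 0.991. In WT HS, column 2 was the highest and column 0 the lowest for all 10 members, against 39.2% and 33.2% of all tested genes. The ratio of column 2 to column 0 ran from 1.35 for BZIP17 to 9.16 for BIP3, with a median of 0.97 over all genes. In 35S:HSFA1b HS, column 2 was the lowest for all 10 members and for 32.4% of all tested genes. The spread within the 35S:HSFA1b groups was narrower, and the highest column exceeded the lowest by 1.02-fold (BZIP17) to 1.38-fold (BIP1) at NS. Whether plants, libraries or their handling differed between these columns was not tested.

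In unstressed plants, 2 of the 10 ER genes were higher in 35S:HSFA1b than in WT. These were ERDJ3A and BZIP28, and the other 8 genes did not pass the threshold. The background share of tested genes called up in 35S:HSFA1b NS against WT NS was 6.12%. The median log2 fold change of the members was 0.50, beside -0.01 over all tested genes.

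ERDJ3A stood at 29.7, 31.0 and 26.9 FPKM in 35S:HSFA1b NS, against 4.71, 0.916 and 1.65 FPKM in WT NS. The groups did not overlap, and the log2 fold change was 3.91 (SE 0.49, limma adjusted p = 0.00171). It was 4.56 without WT NS column 0 and 3.30 with a pseudocount of 1, and was called in both. BZIP28 stood at 17.3, 19.3 and 19.7 FPKM in 35S:HSFA1b NS, against 13.6, 11.1 and 11.0 FPKM in WT NS, a log2 fold change of 0.66 (SE 0.16, limma adjusted p = 0.039). Its call did not hold without WT NS column 1 or 2, WT HS column 1, or any 1 of the 35S:HSFA1b NS columns, where the adjusted p lay between 0.0635 and 0.141.

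BZIP17 stood at 22.1, 21.8 and 22.4 FPKM in 35S:HSFA1b NS, against 19.0, 10.9 and 12.6 FPKM in WT NS. These groups did not overlap either, and the log2 difference was 0.68 with a 95% interval of 0.23 to 1.14 (limma adjusted p = 0.066). It passed the threshold without WT NS column 0 (0.92, limma adjusted p = 0.00828) and without WT HS column 2 (limma adjusted p = 0.0393), which is part of the same fit, and with all 4 groups in 1 fit (limma adjusted p = 0.0289). In all, 3 members had no overlap between 35S:HSFA1b NS and WT NS columns, and 16.9% of tested genes were higher in that way.

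BIP3 stood at 5.62, 6.86 and 6.27 FPKM in 35S:HSFA1b NS, against 11.3, 0.768 and 0.736 FPKM in WT NS. All columns of 35S:HSFA1b NS lay between the high and the low columns of WT NS, and the log2 difference was 1.74 with a 95% interval of -0.74 to 4.22 (limma adjusted p = 0.339). Without WT NS column 0 it was 3.03 (limma adjusted p = 0.0407), so 1 column decided the call. With that column left out, 4 members were called. BIP1 stood at 231, 187 and 259 FPKM in 35S:HSFA1b NS, against 206, 109 and 117 FPKM in WT NS, with a 95% interval of -0.02 to 1.41 around its log2 difference of 0.69 (limma adjusted p = 0.191). BIP2 stood at 112, 86.1 and 113 FPKM in 35S:HSFA1b NS, against 145, 73.4 and 74.3 FPKM in WT NS, so the groups overlapped. For BIP2, BZIP60, ERDJ3B, SDF2 and CNX1 the log2 differences lay between 0.02 and 0.34, and their 95% intervals reached from -1.02 to 1.18 at the widest.

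Heat also raised most of these genes in 35S:HSFA1b plants, where 7 of the 10 passed the threshold. They were BIP1, BIP2, BZIP28, ERDJ3A, ERDJ3B, SDF2 and CNX1. The background share of tested genes called up in 35S:HSFA1b HS against 35S:HSFA1b NS was 22.6%. The median log2 fold change of the members was 1.08, beside 0.02 over all 17720 tested genes.

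BIP1 stood at 749, 892 and 632 FPKM in 35S:HSFA1b HS, against 231, 187 and 259 FPKM in 35S:HSFA1b NS (log2 fold change 1.75, SE 0.29, limma adjusted p = 0.000841). BIP2 stood at 294, 347 and 248 FPKM in 35S:HSFA1b HS, against 112, 86.1 and 113 FPKM in 35S:HSFA1b NS (log2 fold change 1.51, SE 0.34, limma adjusted p = 0.00494). Every HS column of either gene lay above every NS column. ERDJ3A stood at 304, 351 and 284 FPKM in 35S:HSFA1b HS, against 29.7, 31.0 and 26.9 FPKM in 35S:HSFA1b NS (log2 fold change 3.42, SE 0.44, limma adjusted p = 0.000144). As in WT plants, it changed more than any other member.

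ERDJ3B stood at 112, 118 and 92.0 FPKM in 35S:HSFA1b HS, against 55.1, 44.1 and 49.8 FPKM in 35S:HSFA1b NS (log2 fold change 1.11, limma adjusted p = 0.0208). Its partner SDF2 stood at 98.2, 118 and 84.9 FPKM in 35S:HSFA1b HS, against 53.0, 50.7 and 54.1 FPKM in 35S:HSFA1b NS (log2 fold change 0.92, limma adjusted p = 0.0127). Both groups of columns were separate for either gene. The ERDJ3B call was lost without 35S:HSFA1b NS column 1 or 2 or 35S:HSFA1b HS column 0 or 1 (adjusted p 0.0535 to 0.0662), and that of SDF2 without 35S:HSFA1b HS column 1 (0.0521). CNX1 stood at 334, 384 and 282 FPKM in 35S:HSFA1b HS, against 160, 123 and 143 FPKM in 35S:HSFA1b NS (log2 fold change 1.23, limma adjusted p = 0.00454).

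BZIP28 stood at 32.8, 31.7 and 30.0 FPKM in 35S:HSFA1b HS, against 17.3, 19.3 and 19.7 FPKM in 35S:HSFA1b NS (log2 fold change 0.75, SE 0.15, limma adjusted p = 0.00214). BZIP17 stood at 24.5, 26.0 and 24.3 FPKM in 35S:HSFA1b HS, against 22.1, 21.8 and 22.4 FPKM in 35S:HSFA1b NS, and the 95% interval of its log2 difference of 0.17 ran from -0.22 to 0.57 (limma adjusted p = 0.469). These groups did not overlap. BZIP60 stood at 46.0, 54.2 and 41.0 FPKM in 35S:HSFA1b HS, against 28.4, 30.6 and 33.1 FPKM in 35S:HSFA1b NS, with a log2 difference of 0.61 (limma adjusted p = 0.265). BIP3 stood at 14.4, 12.3 and 12.1 FPKM in 35S:HSFA1b HS, against 5.62, 6.86 and 6.27 FPKM in 35S:HSFA1b NS, with a log2 difference of 1.05 (limma adjusted p = 0.421). The columns of all 10 members were higher at HS with no overlap, and 31.3% of tested genes showed this. When the 35S:HSFA1b groups were fitted without the WT columns, BIP3 (limma adjusted p = 0.000213) and BZIP60 (limma adjusted p = 0.00315) were called as well, and BZIP17 was not.

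Heated 35S:HSFA1b plants held less of most ER transcripts than heated WT plants. Of the 10 genes, 8 were called lower, and BIP3 and ERDJ3A were not. The background share of tested genes called down in 35S:HSFA1b HS against WT HS was 16.8%. The median log2 fold change of the members was -1.17, beside -0.03 over all tested genes.

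BIP2 and BZIP60 fell the most. BIP2 stood at 294, 347 and 248 FPKM in 35S:HSFA1b HS, against 664, 1085 and 1761 FPKM in WT HS (log2 fold change -1.88, SE 0.34, limma adjusted p = 0.00224). BZIP60 stood at 46.0, 54.2 and 41.0 FPKM in 35S:HSFA1b HS, against 84.6, 161 and 376 FPKM in WT HS (log2 fold change -1.88, SE 0.41, limma adjusted p = 0.00655). Neither pair of groups overlapped, though the WT HS columns of BZIP60 differed among themselves by 4.45-fold.

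CNX1 (log2 fold change -1.40, limma adjusted p = 0.00339), ERDJ3B (-1.20, 0.021) and SDF2 (-1.14, 0.0062) were lower in 35S:HSFA1b HS by similar amounts. BZIP28 stood at 32.8, 31.7 and 30.0 FPKM in 35S:HSFA1b HS, against 52.7, 60.4 and 81.9 FPKM in WT HS (log2 fold change -1.02, SE 0.15, limma adjusted p = 0.00051). BIP1 (-1.04, limma adjusted p = 0.0224) and BZIP17 (-0.63, limma adjusted p = 0.0241) also passed. Without 35S:HSFA1b HS column 2 or without WT HS column 2, 5 members were called, and the calls of BIP1, BZIP17 and ERDJ3B were those lost. Some of these calls were also lost without WT HS column 1 (BIP1 and ERDJ3B), 35S:HSFA1b HS column 0 (BIP1 and BZIP17) or 35S:HSFA1b HS column 1 (BZIP17), and ERDJ3A was called without WT NS column 0. When the HS groups were fitted alone, ERDJ3A was called lower (limma adjusted p = 0.0455) and the call of ERDJ3B was lost (limma adjusted p = 0.0541).

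ERDJ3A stood at 304, 351 and 284 FPKM in 35S:HSFA1b HS, against 419, 431 and 623 FPKM in WT HS. Its columns did not overlap, but the log2 difference of -0.63 had a 95% interval of -1.60 to 0.34 (limma adjusted p = 0.311). BIP3 stood at 14.4, 12.3 and 12.1 FPKM in 35S:HSFA1b HS, against 9.92, 46.6 and 90.9 FPKM in WT HS, and the 95% interval of its log2 difference of -1.43 ran from -3.59 to 0.73 (limma adjusted p = 0.302). Column 0 of WT HS lay below all 3 columns of 35S:HSFA1b HS for this gene. In all, 9 members had no overlap, and 23.8% of the tested genes were lower in that way.

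Abundant genes as a class stood lower in heated 35S:HSFA1b than in heated WT columns, a class that was drawn after the values were seen. The median log2 difference was -0.31 for the 1260 tested genes with a mean of 100 to 1000 FPKM over all columns, which include 6 members, and -1.24 for the 116 genes with a mean of 1000 FPKM or more. It was -0.04 for the 8427 genes of 10 to 100 FPKM, which include the other 4 members. Among the 214 genes of 100 to 1000 FPKM whose WT heat log2 difference was at least 1, the median was -0.81, and 86.9% lay below 0. These 214 genes include 6 members and were picked with the WT HS columns that also enter this comparison. After quantile normalization between columns, BIP1 had a log2 difference of -0.16 (limma adjusted p = 0.7), ERDJ3B one of -0.92 (0.0509) and CNX1 one of -0.71 (0.056), so 5 members were called. BIP2 was still called, with a log2 difference of -1.17 (limma adjusted p = 0.0177). Submission cannot be told apart from genotype here, and the part of these level classes in the result was not tested.

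**Figure D2:**
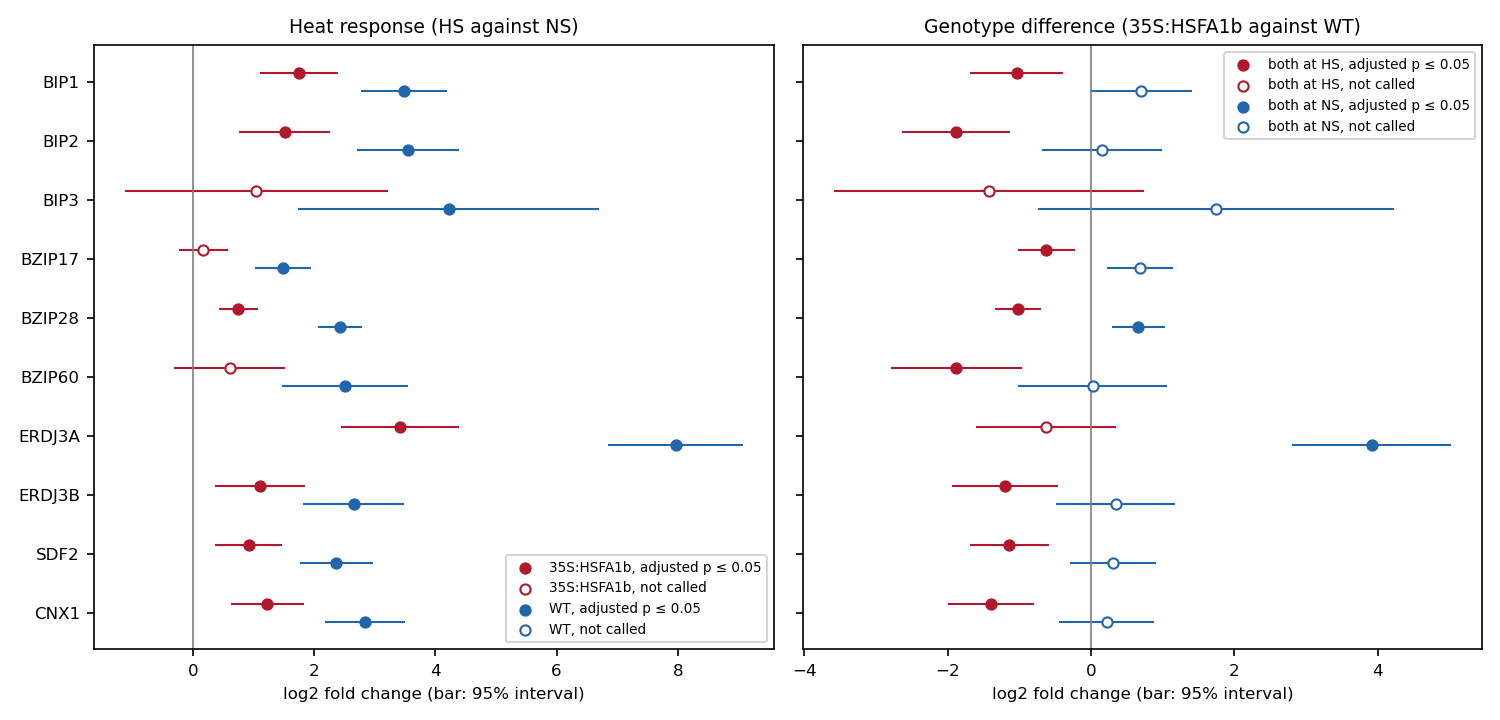
log2 fold changes of the 10 genes with 95% intervals from limma. Left: HS against NS in 35S:HSFA1b (red) and WT (blue); right: 35S:HSFA1b against WT at HS (red) and at NS (blue); filled points passed an adjusted p of 0.05. All 10 heat changes are larger in WT, and ERDJ3A at NS (3.91) is the largest genotype difference.

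The heat response itself was smaller in 35S:HSFA1b than in WT plants for 7 of the 10 genes by the interaction term, which compares HS against NS in 35S:HSFA1b with HS against NS in WT. This term draws on the HS groups, where submission cannot be told apart from genotype. The background share of tested genes with a lower response was 7.97%. The median of this difference was -1.71 for the members and 0.00 over all tested genes, and it was below 0 for all 10 members. The median was -0.01 for all 8427 genes of 10 to 100 FPKM and -0.04 for all 1260 genes of 100 to 1000 FPKM. It was -0.31 for the 116 genes of 1000 FPKM or more, with quartiles of -1.54 and -0.09. These classes were not picked for a response to heat. The heat-raised genes of like level described above were not examined in the interaction.

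The largest difference was that of ERDJ3A at -4.54 (SE 0.62, limma adjusted p = 0.00103), the member that started from 26.9 to 31.0 FPKM in 35S:HSFA1b NS and from 0.916 to 4.71 FPKM in WT NS. Without WT NS column 0 it was -5.19, and with a pseudocount of 1 it was -3.93. The difference was -2.04 for BIP2 (limma adjusted p = 0.0223), -1.73 for BIP1 (0.0231), -1.68 for BZIP28 (0.000493), -1.61 for CNX1 (0.0229), -1.45 for SDF2 (0.025) and -1.31 for BZIP17 (0.00867). BIP3 had the widest interval, -6.23 to -0.11 around -3.17, with a limma adjusted p of 0.155. BZIP60 (-1.90, limma adjusted p = 0.0591) and ERDJ3B (-1.54, limma adjusted p = 0.0579) lay just outside the threshold. After quantile normalization between columns, 3 calls were lost. They were those of BIP1 (-1.03, limma adjusted p = 0.0907), BIP2 (-1.37, 0.0592) and CNX1 (-1.04, 0.0682).

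Expressed as a share of the WT log2 heat change, the change in 35S:HSFA1b was 50.2% for BIP1, 43.2% for CNX1, 42.9% for ERDJ3A, 42.6% for BIP2, 41.8% for ERDJ3B and 38.9% for SDF2. The chaperones other than BIP3 thus lay between 38.9% and 50.2%. The share was 30.8% for BZIP28, 24.9% for BIP3, 24.2% for BZIP60 and 11.7% for BZIP17. Only 3 members, ERDJ3A, BZIP17 and BZIP28, were called in the interaction under each column left out in turn. Without WT NS column 1 or 2, 35S:HSFA1b NS column 2 or 35S:HSFA1b HS column 2, these were the only calls. Without WT NS column 0 or WT HS column 0 all 10 members were called, without WT HS column 2 BZIP60 was called as well, and the call of SDF2 was also lost without WT HS column 1, 35S:HSFA1b NS column 1 or 35S:HSFA1b HS column 0. Without WT NS column 0 and 35S:HSFA1b NS column 2 together, a choice made after the data were seen, 9 members were called.

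The BiP genes were compared as shares of a sum, which does not depend on the scaling of a column. BIP3 made up 1.36, 0.983 and 1.36% of the summed FPKM of BIP1, BIP2 and BIP3 in 35S:HSFA1b HS, and 0.579, 1.70 and 2.25% in WT HS. At NS it made up 1.61, 2.45 and 1.66% in 35S:HSFA1b and 3.11, 0.419 and 0.383% in WT. The share in WT NS thus fell into 1 high column and 2 low columns, and the 35S:HSFA1b NS columns lay between them. None of the 4 comparisons passed a two-sided exact permutation test, whose smallest possible p with 3 columns a group is 0.1. The difference was -0.67 percentage points between HS and NS in 35S:HSFA1b (exact p = 0.1, adjusted over 4 comparisons 0.4) and 0.21 percentage points between HS and NS in WT (exact p = 0.8, adjusted 0.8). Between 35S:HSFA1b and WT it was -0.28 percentage points at HS (exact p = 0.7, adjusted 0.8) and 0.60 percentage points at NS (exact p = 0.6, adjusted 0.8).

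BIP1 made up 71.8, 72.0 and 71.9% of the sum of BIP1 and BIP2 in 35S:HSFA1b HS, against 61.0, 59.6 and 55.4% in WT HS. At NS it made up 67.4, 68.5 and 69.5% in 35S:HSFA1b, against 58.8, 59.8 and 61.2% in WT. All 6 columns of 35S:HSFA1b lay above all 6 columns of WT. This share was examined after the values were seen and is given without a test, and the near-identical sequences of the pair limit what it measures.

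**Figure D3:**
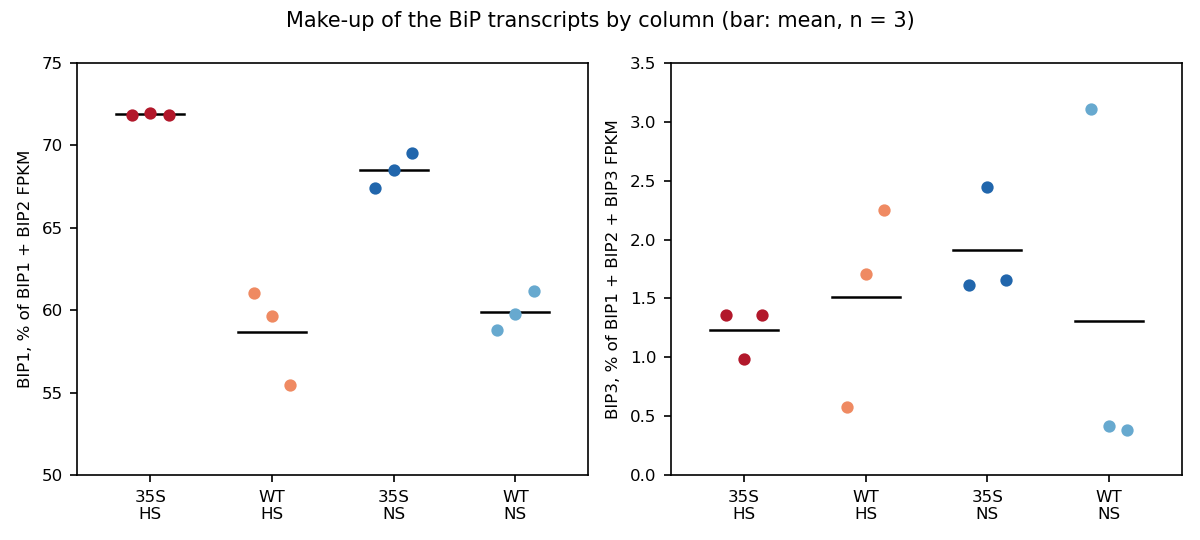
Shares among the BiP transcripts in every column, with 35S:HSFA1b HS, WT HS, 35S:HSFA1b NS and WT NS from left to right and bars at the mean of 3 columns. Left: BIP1 as a percent of BIP1 and BIP2, on an axis that starts at 50%; all 35S:HSFA1b columns (67.4 to 72.0%) lie above all WT columns (55.4 to 61.2%). Right: BIP3 as a percent of all 3 genes, where WT NS splits into 3.11% and values near 0.4%.

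A further 37 genes of ER folding and quality control were examined in 4 lists, of which 36 were tested. The one left out was the transcription factor gene NAC103, with a mean of 0.200 FPKM in 35S:HSFA1b HS, 0.242 FPKM in WT HS, 0.326 FPKM in 35S:HSFA1b NS and 0.482 FPKM in WT NS. In WT HS against WT NS, 26 of the 36 rose and 0 fell past the same limma threshold, with a median log2 fold change of 1.27, beside 23.7% of all tested genes called up. In this comparison and in both others against an NS group, 0 of them fell at an unadjusted p below 0.05 as well. By list, 8 of 11 ER chaperones and co-chaperones rose, 9 of 11 genes of disulphide formation, 6 of 8 of ER-associated degradation and 3 of 6 regulators.

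The largest increases were in DER1, PDIL2-2 and P58IPK. DER1, a derlin of the channel through which misfolded proteins leave the ER, had 380, 536 and 844 FPKM in WT HS from lowest to highest, against 26.7, 26.8 and 36.2 FPKM in WT NS (log2 fold change 4.23, limma adjusted p = 5.14e-06). PDIL2-2, a protein disulphide isomerase, averaged 80.4 ± 33.1 FPKM in WT HS and 7.67 ± 5.04 FPKM in WT NS (SD, n = 3 each), a log2 fold change of 3.48. P58IPK, a J-protein of the ER, averaged 163 ± 55.1 FPKM in WT HS and 25.3 ± 6.62 FPKM in WT NS (SD, n = 3 each), a log2 fold change of 2.66.

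In 35S:HSFA1b NS against WT NS, 3 of the 36 genes rose and 0 fell, with a median log2 fold change of 0.31, beside 6.12% of all tested genes called up. They were DER1, DER2.1 and ERDJ2A, the last of which encodes a Sec63-type J-protein of the translocation pore. DER1 averaged 65.0 ± 2.00 FPKM in 35S:HSFA1b NS and 29.9 ± 5.45 FPKM in WT NS (SD, n = 3 each), a change of 1.13 on the log2 scale (limma adjusted p = 0.0278). DER2.1 averaged 48.0 ± 3.15 FPKM in 35S:HSFA1b NS and 22.2 ± 1.01 FPKM in WT NS (SD, n = 3 each), a change of 1.11 on the log2 scale (limma adjusted p = 0.000608). ERDJ2A averaged 30.6 ± 0.395 FPKM in 35S:HSFA1b NS and 24.7 ± 2.1 FPKM in WT NS (SD, n = 3 each), a change of 0.31 on the log2 scale (limma adjusted p = 0.0415).

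In 35S:HSFA1b HS against 35S:HSFA1b NS, 16 of the 36 rose and 0 fell, with a median log2 fold change of 0.47, beside 22.6% of all tested genes called up. The increases were largest for DER1 (2.09), PDIL2-2 (1.63) and AT4G16660 (1.3), an HSP70 family gene. By list, 7 of 11 chaperones and co-chaperones, 3 of 11 disulphide genes, 5 of 8 degradation genes and 1 of 6 regulators rose.

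In 35S:HSFA1b HS against WT HS, 1 of the 36 was higher and 13 were lower, with a median log2 fold change of -0.47, beside 12.1% of all tested genes called higher and 16.8% called lower. The higher one was ERDJ2A (0.36, limma adjusted p = 0.00293), which averaged 34.3 ± 0.555 FPKM in 35S:HSFA1b HS and 26.6 ± 0.442 FPKM in WT HS (SD, n = 3 each). Among the called genes, the largest decreases were those of the calreticulin gene CRT1B (-1.27), HSP90.7 (-1.20), which encodes the ER form of HSP90, and CRT1A (-1.10). The interaction was negative past the threshold for 11 of the 36 and positive for 0, with a median of -0.93, beside 7.97% of all tested genes with a negative call. Among these 11 it was most negative for DER1 (-2.14), HSP90.7 (-1.68) and CRT1B (-1.49). No gene of disulphide formation and no regulator was among the 11, which comprised 5 chaperones and co-chaperones and 6 genes of degradation. At an unadjusted limma p below 0.05, 7 genes of disulphide formation and 2 regulators had a negative and 1 gene of disulphide formation a positive interaction.

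**Figure D4:**
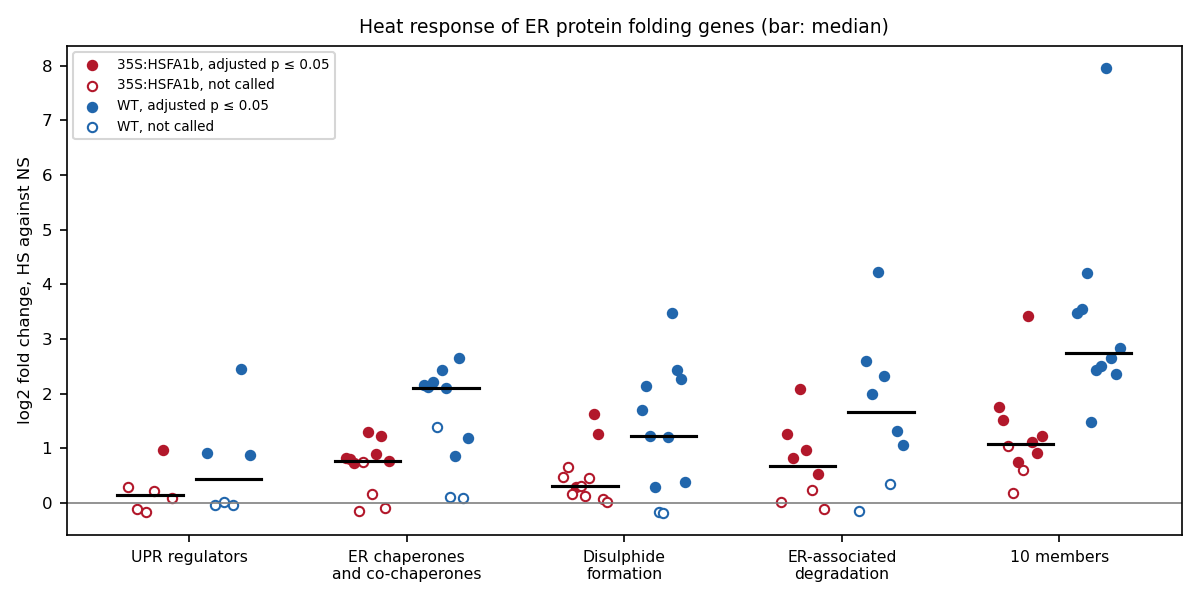
log2 fold change of HS against NS for 36 further ER genes in 4 lists and for the 10 members, in 35S:HSFA1b (red, left of each pair) and WT (blue, right); filled points passed an adjusted p of 0.05 and bars are medians. The median is 1.08 for the members and 0.77 for the chaperones and co-chaperones in 35S:HSFA1b, against 2.75 and 2.11 in WT.

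The tested genes whose pattern over the 12 columns was closest to a member were ranked by the root mean square difference of log2 values, each gene centred on its WT NS mean. For BIP2 the closest were AT2G02810, which encodes a UDP-galactose transporter (0.29), NCED3, which encodes an enzyme of abscisic acid synthesis (0.38), and CNX1 (0.39). For BZIP28 they were the J-protein gene J2 (0.12), the peroxidase gene TPX1 (0.13) and AT3G47550 (0.19). For BIP3 they were AT5G08240 (0.39), AT5G52760 (0.57) and AT1G36622 (0.67).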

How the data were processed

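The authors used GSNAP to map paired-end reads to the Arabidopsis transcriptome (TAIR10) and Cufflinks with Cuffdiff, under geometric normalization of libraries, to estimate expression. They deposited 1 FPKM value per locus and column. Whether reads were assigned by strand is not given in the sources used here. The table holds no counts, so the depth behind a value is unknown, and precision comes only from how far columns of a group differ. Column names gave the group. The genotype label reads wild type for every library, and the titles were followed.

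Tests used limma 3.58.1 (R 4.3.3) on log2(FPKM + 0.01) values (lmFit, eBayes with an intensity trend, two-sided moderated test) for loci with a mean of at least 1 FPKM. All fold changes are on that scale, where the added 0.01 shrinks the change of genes with values near 0. They compare means of log values and can differ from ratios of mean FPKM. For WT HS over WT NS that ratio was 203 for ERDJ3A and 11.5 for BIP3, against fold changes of 250 and 18.6. WT HS and 35S:HSFA1b NS were each compared with WT NS in 1 fit of 9 columns (17710 loci), and comparisons with 35S:HSFA1b HS used all 12 columns (17720 loci). Adjusted p-values are Benjamini-Hochberg over all tested loci, and a gene was called at 0.05 or below. BiP shares were compared with exact permutation tests in Python 3.11.15 with scipy 1.17.1. Copies were searched with BLAST+ 2.17.0, keeping alignments of at least 100 bases at 90% identity. Coordinates and sequences are from the RefSeq annotation of TAIR10.1. The procedure was tested on simulated data. The members and the gene lists were chosen with earlier results of these data known. Named were all 10 members, the 3 largest called changes in each direction among the other ER genes in each comparison, and the 3 genes most like BIP2, BIP3 and BZIP28. NAC103, the level classes, the share of BIP1 in BIP1 and BIP2, the plant ERSE and the G-box were added after values or first matches were seen. Alternatives covered the pseudocount, the filter, scaling, the groups fitted, the trend, a replicate block, the summed BIP1 and BIP2 and each column left out in turn.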

Additional observations from a re-analysis of the deposited data

Results flagged for a closer look

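The HS response differed between 35S:HSFA1b and WT by the interaction term in limma for 7 of the 10 genes, each with a smaller response in 35S:HSFA1b. Over all tested genes, 7.97% were called with a lower response. The log2 difference was -4.54 for ERDJ3A, -2.04 for BIP2, -1.73 for BIP1, -1.68 for BZIP28, -1.61 for CNX1, -1.45 for SDF2 and -1.31 for BZIP17. Only ERDJ3A, BZIP17 and BZIP28 kept the call with each column left out in turn. The calls of BIP1, BIP2 and CNX1 were also lost under quantile normalization. Submission cannot be told apart from genotype in the HS groups that enter this term. Groups of 3 columns are too small for a test of single columns that stand apart.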

How the results depend on the processing

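Pseudocounts of 0.1 and 1, no filter on low values, and BIP1 and BIP2 summed changed no call of a member. Quantile normalization gave 5 members called in 35S:HSFA1b HS against WT HS and 4 in the interaction. The interaction calls lost were those of BIP1, BIP2 and CNX1. Without the intensity trend 1 member was called in 35S:HSFA1b NS against WT NS, and with all 4 groups in 1 fit 2624 tested genes were called there in place of 1731, BZIP17 among them. With the compared groups fitted alone, BIP3 and BZIP60 were gained in 35S:HSFA1b HS against 35S:HSFA1b NS, and ERDJ3A was gained and ERDJ3B lost in 35S:HSFA1b HS against WT HS. In 35S:HSFA1b NS against WT NS, BZIP60 had a log2 difference of -0.0298 under quantile normalization and -0.0677 under median scaling. It was 0.02 in the main fit and was not called in any of these. The cause was not tested.

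The digits of the columns do not pair the samples: correlations of same-digit deviations lay between -0.385 and 0.0709. With the digit as a replicate block, 1 member and 767 tested genes were called in 35S:HSFA1b NS against WT NS, and 3 members in the interaction.

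With each column left out in turn, members called numbered 9 to 10 in WT HS against WT NS, 1 to 4 in 35S:HSFA1b NS against WT NS, 5 to 7 in 35S:HSFA1b HS against 35S:HSFA1b NS, 5 to 9 in 35S:HSFA1b HS against WT HS and 3 to 10 in the interaction. Tested genes called ranged from 5876 to 8021 in WT HS against WT NS and from 641 to 2873 in 35S:HSFA1b NS against WT NS. They ranged from 5945 to 8335 in 35S:HSFA1b HS against 35S:HSFA1b NS and from 3660 to 5251 in 35S:HSFA1b HS against WT HS. In the interaction the range was 1161 to 3387. At NS the log2 difference between 35S:HSFA1b and WT ranged from -0.0126 to 0.48 for BIP2 and from -0.10 to 0.25 for BZIP60. The difference in the BIP3 share ranged from -0.256 to 1.11 percentage points for WT HS against WT NS and from -0.742 to 0.0924 for 35S:HSFA1b HS against WT HS. The last of these differences was -0.28 percentage points as a percent of all 3 genes and reversed to 0.795 percentage points when BIP3 was taken as a percent of BIP2. Precision is limited by 3 columns a group and by submission, which cannot be told apart from genotype at HS.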
